A study of Mus musculus with 35 samples.

Results

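The 42 genes described here are proliferation genes of the cell cycle, the transcripts that a mammalian cell makes while it copies its DNA and divides. They were matched by symbol to the rows of a table of normalised read counts from mouse aorta. All 42 were among the 14174 genes of that table, and all 42 passed the minimum for testing, which was a value of 1 or more in 3 or more libraries. The table holds 35 libraries in 12 groups, made from 3 genotypes, 2 diets and 2 durations, and every mouse carried the C57BL/6 background. Wild-type (WT) mice had an intact Apoe gene. EKO mice lacked Apoe, whose product clears remnant lipoproteins from blood, and mice without it develop atherosclerosis. EKO/hA-I mice lacked Apoe too and overexpressed human apoA-I, the protein around which high-density lipoprotein is built. The promoter of that transgene is not stated in the labels, and its transcript was not analysed here. Mice of each genotype were started at 8 weeks of age on chow or on a Western diet (WD) and kept on it for 6 or 22 weeks, so that they were 14 or 30 weeks old at the end. Blood was flushed out, the aorta was taken from its root down to the iliac bifurcation, and the fat around it was stripped off. Groups had 3 libraries each, and the group of EKO/hA-I mice given chow during 6 weeks had 2.

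A dividing cell passes through a DNA synthesis phase and a mitotic phase, separated by gaps. In the first it needs deoxynucleotides, the MCM helicase that opens DNA and the sliding clamp PCNA. In the second, cyclin A and cyclin B switch on the kinase CDK1, chromosomes are condensed, a spindle is built, the anaphase-promoting complex destroys the cyclins, and the cell is pinched into daughters. Many of these genes are kept silent in resting cells by a protein complex that sits on their promoters and are switched on together. In a healthy adult aorta few cells divide, and in atherosclerotic lesions macrophages and smooth muscle cells are known to proliferate.

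Promoters are shown for 5 genes, marked for elements through which this joint switching is known to work. The window is the 250 bases before the transcription start, from RefSeq on GRCm38.p6, and 36 of the 42 genes have one. A gene with several listed starts counts as holding a motif where any of its windows does. Ccna2, Mcm4, Kif20a, Smc4, Aurkb and Tpx2 have none. Capitals mark 3 motifs searched on both strands: the cell cycle homology region (TTTGAA or TTCGAA), the CCAAT box (CCAAT), and an E2F site (TTTNNCGC, where N is any base). These 5 genes were chosen after their values were seen. Mki67 was taken as the usual marker of cycling cells and Pcna as one of replication. Prc1 was taken for its calls, Mcm5 for its E2F matches and Anln because it ran against the rest. Mki67 (chr7:135716380-135716629, minus strand) holds 2 homology regions and 3 CCAAT boxes, Prc1 (chr7:80294201-80294450, plus strand) and Pcna (chr2:132253181-132253430, minus strand) hold 1 CCAAT box each in the window shown (a second listed start of Prc1, not shown, has a window with 1 homology region and 1 CCAAT box), Mcm5 (chr8:75109259-75109508, plus strand) holds 2 CCAAT boxes and 2 overlapping E2F matches, and Anln (chr9:22389207-22389456, minus strand) holds none of the 3.
Mki67: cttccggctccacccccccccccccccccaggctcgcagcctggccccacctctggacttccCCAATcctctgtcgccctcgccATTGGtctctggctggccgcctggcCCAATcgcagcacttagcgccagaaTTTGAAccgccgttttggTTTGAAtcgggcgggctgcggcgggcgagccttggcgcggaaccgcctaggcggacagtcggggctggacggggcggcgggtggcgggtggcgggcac
Prc1: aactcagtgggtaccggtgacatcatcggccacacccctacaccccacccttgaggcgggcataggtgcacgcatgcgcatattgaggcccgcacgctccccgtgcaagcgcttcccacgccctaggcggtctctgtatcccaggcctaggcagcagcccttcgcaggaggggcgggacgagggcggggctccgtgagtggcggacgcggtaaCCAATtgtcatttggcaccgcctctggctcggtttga
Pcna: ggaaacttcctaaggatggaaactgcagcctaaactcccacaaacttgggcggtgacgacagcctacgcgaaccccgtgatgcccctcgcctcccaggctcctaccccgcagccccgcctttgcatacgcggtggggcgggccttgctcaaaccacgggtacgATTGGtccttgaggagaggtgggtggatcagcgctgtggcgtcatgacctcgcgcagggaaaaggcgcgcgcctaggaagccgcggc
Mcm5: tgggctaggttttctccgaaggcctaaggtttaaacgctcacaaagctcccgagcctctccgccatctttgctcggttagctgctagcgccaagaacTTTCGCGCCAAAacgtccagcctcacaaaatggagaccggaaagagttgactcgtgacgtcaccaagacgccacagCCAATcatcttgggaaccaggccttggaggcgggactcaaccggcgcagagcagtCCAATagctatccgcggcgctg
Anln: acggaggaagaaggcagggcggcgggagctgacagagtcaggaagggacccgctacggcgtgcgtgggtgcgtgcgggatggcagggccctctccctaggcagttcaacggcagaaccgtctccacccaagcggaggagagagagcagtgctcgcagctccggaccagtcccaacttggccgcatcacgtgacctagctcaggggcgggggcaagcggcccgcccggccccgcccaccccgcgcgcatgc

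The homology region was present in 14 of the 36 windows (38.9%), against 1562 of the 10757 genes of the table that have a window (14.5%). A CCAAT box was found in 30 of 36 (83.3%) against 40% of all windows. An E2F match was found in 6 of 36 (16.7%) against 7.81%. The homology region and a CCAAT box stood together in 14 of 36 (38.9%) against 5.54%. Top2a, the topoisomerase that untangles sister chromosomes, had the most matches, with 4 homology regions and 6 CCAAT boxes in its window. Like that of Anln, the windows of Birc5, Melk, Nusap1, Tk1 and Tyms held none of the 3 motifs. Over the 35 libraries Birc5, Nusap1, Tk1 and Melk still followed the mean of the other genes (r = 0.90, 0.89, 0.88 and 0.88). Tyms did not (r = 0.22). A match is a run of letters and was not tested as a site of binding.

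Depth was between 6.86e+06 and 2.53e+07 reads per library (median 1.50e+07), read from the size of the smallest step between values. Apoe, the targeted gene, was 416 to 1276 in WT libraries and 5.37 to 29.7 in EKO and EKO/hA-I libraries. The library WT on Western diet for 22 weeks, replicate 3, carries an EKO genotype tag against its WT title. Its Apoe value of 540 lay inside the WT range, and it was kept as WT. Markers of smooth muscle (Myh11 at 1086 or more) and endothelium (Pecam1 at 265 or more) were high in all 35 libraries. Libraries without Y-linked transcripts numbered 12, with 1 in most groups, 2 in EKO on chow for 22 weeks and 0 in EKO/hA-I on chow for 22 weeks. Transcripts of immature T cells and of B cells were high in some libraries of several groups and low in others. WT on Western diet for 22 weeks, replicate 1, held Rag1, the recombinase of lymphocyte precursors, at 178, and Dntt, the polymerase that adds bases during that recombination, at 114. EKO/hA-I on Western diet for 22 weeks, replicate 2, held the B cell gene Cr2 at 33.7. With EKO on chow for 22 weeks, replicate 1, and WT on chow for 6 weeks, replicate 1, these were the 4 libraries of highest T and B lymphocyte markers. They are named below wherever a result rests on them. Rag1 was high elsewhere too. It was 64.5 in WT on Western diet for 22 weeks, replicate 2, and 61.6 in EKO/hA-I on Western diet for 6 weeks, replicate 3.

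All 42 genes were above 0 in each library, at low levels: the median over libraries was below 10 normalised reads for 30 genes and at least 10 for 12. Mki67, which encodes the Ki-67 protein that coats mitotic chromosomes and is the usual stain for cycling cells ranged from 3.02 to 93.3 (30.9-fold, 47 to 1425 reads). Bub1, a kinase of the spindle checkpoint, had the widest range of the 42 (54.4-fold). The values of Mki67 were 30.0, 5.61 and 17.4 in WT on chow for 6 weeks, 17.4, 12.5 and 3.02 in WT on chow for 22 weeks, and 14.4, 9.21 and 7.94 in WT on Western diet for 6 weeks. Mki67 was 93.3, 32.2 and 5.32 in WT on Western diet for 22 weeks, with the first of these values coming from the library of high Rag1. Among EKO mice Mki67 was 7.68, 16.4 and 17.4 on chow for 6 weeks, 33.9, 16.7 and 6.49 on chow for 22 weeks, 14.2, 9.69 and 16.5 on Western diet for 6 weeks, and 35.3, 33.4 and 28.4 on Western diet for 22 weeks. In that last group the lowest library lay above the highest EKO library at 6 weeks of either diet. In EKO/hA-I mice Mki67 was 6.08 and 10.2 on chow for 6 weeks, 4.97, 14.6 and 7.76 on chow for 22 weeks, 6.06, 13.9 and 19.3 on Western diet for 6 weeks, and 10.4, 43.1 and 8.57 on Western diet for 22 weeks, where the middle value is the library of high Cr2.

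**Figure D1:**
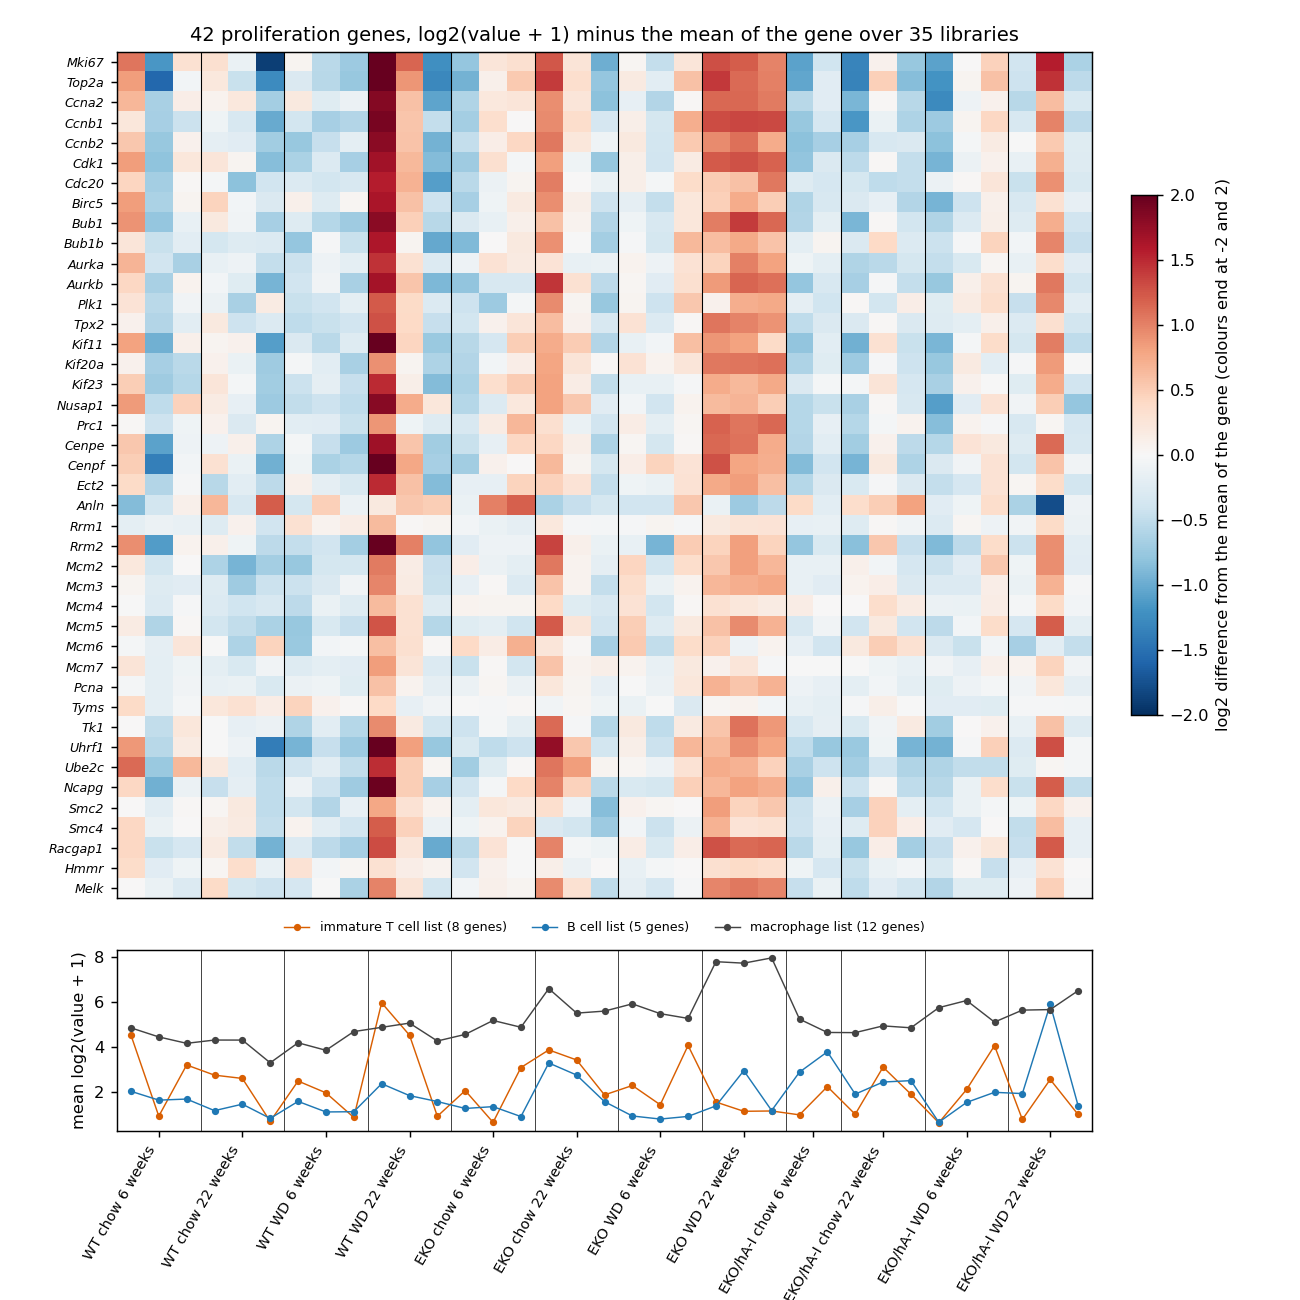
Each row of the upper panel is 1 of the 42 genes and each column 1 of 35 libraries in 12 groups; colour is log2(value + 1) minus the mean of that gene over all libraries, and the lower panel gives the mean log2(value + 1) of 3 marker lists. Most rows share their colour within a column: WT on Western diet for 22 weeks, replicate 1, is the highest library for 31 of the 42 genes, and EKO on Western diet for 22 weeks is the group in which all 3 libraries are high.

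The genes moved together from library to library. The correlation of each gene with the mean of the other 41 over 35 libraries, given as a description, was at least 0.9 for 19 genes and at least 0.7 for 37 (median 0.89). The 5 below 0.7 were Anln (-0.29), Tyms (0.22), Mcm6 (0.38), Hmmr (0.60) and Rrm1 (0.66). Anln encodes anillin, an actin-binding protein of the cleavage furrow, and its level ran against the rest: it reached 87.5 in WT on chow for 22 weeks, replicate 3, where Mki67 was at its lowest. Tyms, the thymidylate synthase, stayed between 19.1 and 32.6 in the 35 libraries, a range of 1.70-fold. Hmmr, a spindle-associated hyaluronan receptor, stayed between 7.88 and 14.9. WT on Western diet for 22 weeks, replicate 1, was the highest library for 31 genes. The mean log2 level of the 42 genes was 3.60 ± 0.045 (SD, n = 3) in EKO on Western diet for 22 weeks, 3.30 ± 0.94 in WT on that diet and duration, 2.88 ± 0.25 in EKO on Western diet for 6 weeks and 2.91 ± 0.50 in EKO/hA-I on Western diet for 22 weeks. EKO on Western diet for 22 weeks thus combined the highest mean with the narrowest spread of these 4 groups.

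Fold changes below are differences of log2(value + 1), which understate changes of low genes, from 1 limma fit to all 12 groups with Benjamini-Hochberg adjusted p-values over 14157 genes. A gene is said to rise or fall where its adjusted p is under 0.05. In whole aorta, fewer cells of a type and less RNA per cell cannot be told apart. The group EKO on Western diet for 22 weeks enters each of the first 4 comparisons, so their values share those 3 libraries.

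The first comparison followed EKO mice on Western diet from 6 to 22 weeks, with age moving along with duration. After 22 weeks, 41 of the 42 genes had a higher mean log2 level (median difference 0.69, against 0.01 over all genes), and 4 of them rose past the threshold: Pcna, Prc1, Melk and Tpx2. None fell. Of all genes tested, 10.5% rose and 13.4% passed in either direction, so 4 of 42 is no larger a share than the background. The separation of the libraries was wider than the count of calls. For 32 of the 42 genes all 3 libraries at 22 weeks lay above all 3 at 6 weeks, against 19.5% of all genes. The 42 genes move together, so these are not 32 separate observations, and the share of all genes does not test the count. The same holds for each count of ranges apart below.

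The cyclin and kinase genes that drive entry into mitosis separated by library in this comparison, though none of the 4 passed the threshold. Cdk1, the mitotic kinase, was 2.48, 1.45 and 2.57 at 6 weeks and 6.49, 6.72 and 6.25 at 22 weeks. Ccnb1, which encodes cyclin B1, its partner, was 2.28, 1.37 and 4.02 at 6 weeks and 6.49, 6.65 and 6.63 at 22 weeks. Ccna2, which encodes cyclin A2, was 4.28, 2.92 and 5.02 against 12.1, 12 and 11.1. The ranges did not overlap for any of the 4 genes of this role, and their median log2 difference was 1.21. In the fit of 12 groups the adjusted p was 0.091 for Cdk1, 0.11 for Ccnb1 and 0.09 for Ccna2.

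Among mitotic kinases and checkpoint genes, Melk, a kinase of proliferating and progenitor cells, rose. It was 0.630, 0.458 and 0.804 at 6 weeks and 2.62, 2.81 and 2.62 at 22 weeks, with no overlap (log2 difference 1.18, SE 0.30, adjusted p = 0.0084). Bub1 was 0.984, 0.687 and 1.45 against 3.28, 4.54 and 3.63, apart in range but not past the threshold (adjusted p = 0.065). Among spindle genes, Tpx2, which activates Aurora A on microtubules, rose from 8.47, 5.44 and 6.95 to 15.4, 14.6 and 13.4 (log2 difference 0.98, SE 0.30, adjusted p = 0.026). Ranges lay apart for 6 of the 7 spindle and kinetochore genes and for 5 of the 7 mitotic kinases and checkpoint genes.

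Prc1, which bundles microtubules at the spindle midzone so that the furrow can form, rose from 6.92, 5.20 and 6.35 to 15.2, 13.9 and 14.7 (log2 difference 1.13, SE 0.27, adjusted p = 0.0054). The lowest value at 22 weeks was above all values in the other 11 groups. Racgap1, its neighbour in the midzone, was 6.05, 4.12 and 5.96 against 14.4, 12.9 and 13.2 (adjusted p = 0.078). Of the chromosome genes, Mki67 had a log2 difference of 1.23 (SE 0.76, adjusted p = 0.33). Top2a was 11.3, 8.40 and 15.4 at 6 weeks and 28.1, 23.0 and 20.8 at 22 weeks (log2 difference 1.00, adjusted p = 0.44). All 5 chromosome genes had ranges apart, and none passed the threshold.

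Of the 8 genes of the replication fork and its maintenance, Pcna rose, from 54.0, 49.8 and 63.2 to 88.8, 80.1 and 88.2 (log2 difference 0.62, SE 0.14, adjusted p = 0.0023). Ranges were apart for 4 of these 8 genes, and the median log2 difference was 0.57. Mcm6 and Mcm7, subunits of the helicase, had log2 differences of 0.01 and 0.06. For nucleotide supply, 2 of 4 genes had ranges apart. Tk1, the thymidine kinase, had a log2 difference of 0.89 (adjusted p = 0.089) and Tyms one of 0.16. Leaving out each of the 6 libraries in turn gave 3 or 4 calls. Prc1, Pcna and Melk passed each time, and Tpx2 passed in 1 of the 6 fits.

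How many genes passed here depended on how the spread was estimated. With the 6 libraries of this comparison alone in the fit, 17 of the 42 passed, among them Mki67 (log2 difference 1.23, SE 0.20, adjusted p = 0.0076) and Top2a (adjusted p = 0.027). Without the 4 libraries of highest lymphocyte markers, none of which belongs to this comparison and which act on it only through the shared spread, 14 of 42 rose, against 11.2% of all genes. That order rests on T and B lymphocyte markers without Rag1 or Dntt. By immature T cell transcripts EKO on Western diet for 6 weeks, replicate 3, ranked 4 of the 35 libraries (Rag1 at 45.7). It belongs to this comparison and was kept. With a pseudocount of 5 in place of 1, 8 passed. The share of all genes is not set beside the counts of 17 and 8, which therefore do not show a response particular to this set.

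**Figure D2:**
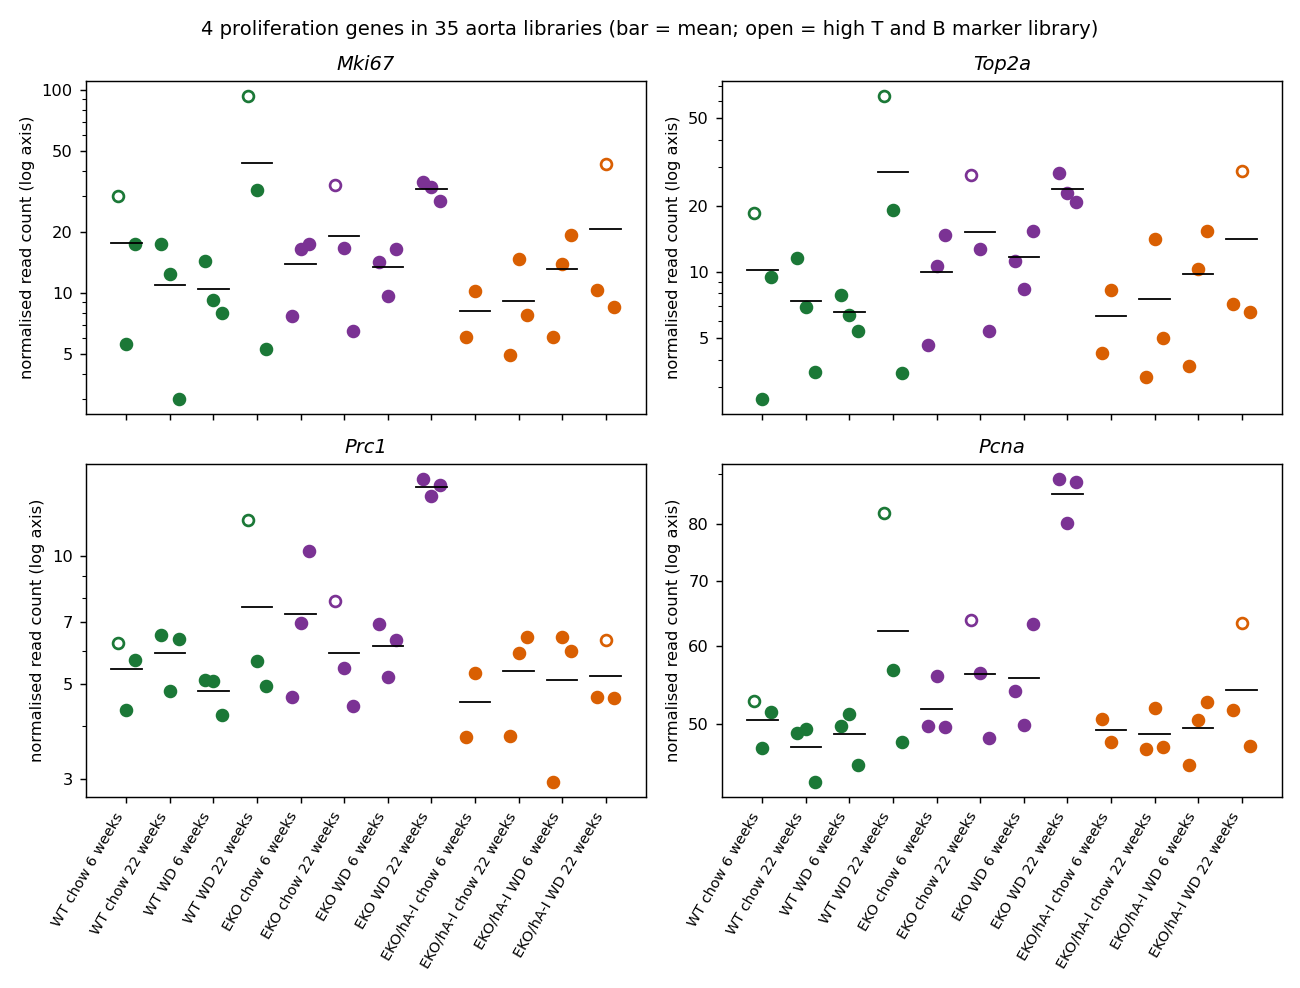
Normalised read counts (log axis) of Mki67, Top2a, Prc1 and Pcna in 35 libraries; each point is a library, bars are group means and open points are the 4 libraries of highest T and B lymphocyte markers. For Prc1 the 3 libraries of EKO on Western diet for 22 weeks, at 13.9 to 15.2, lie above all others, whereas Mki67 and Top2a have their highest value in a WT library drawn as an open point.

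The same aortas were compared with those of EKO mice kept on chow for 22 weeks. On Western diet 40 of the 42 genes were higher (median log2 difference 0.59, against 0.02 over all genes), and 5 rose: Pcna, Prc1, Smc4, Smc2 and Tpx2. None fell. The share of all genes that rose was 13.9%, and 18.7% passed in either direction. Ranges lay apart for 18 of 42, against 22.9% of all genes. Prc1 was 7.84, 5.46 and 4.45 on chow, below all 3 Western diet libraries (log2 difference 1.20, SE 0.27, adjusted p = 0.0028). Pcna was 63.8, 56.3 and 48.4 on chow, also without overlap (log2 difference 0.61, SE 0.14, adjusted p = 0.0025). Tpx2 was 10.9, 7.29 and 5.21 on chow (log2 difference 0.86, adjusted p = 0.042). Of the 6 fits that left out 1 library, Prc1 and Pcna passed in all, Smc4 in 4, Smc2 in 3 and Tpx2 in 1.

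Smc2 and Smc4 encode the paired ATPases of condensin, the ring that compacts chromosomes. Smc4 was 24.3, 23.1 and 17.8 on chow and 49.2, 36.6 and 37.1 on Western diet (log2 difference 0.88, SE 0.28, adjusted p = 0.026). Smc2 was 11.6, 8.37 and 4.59 against 17, 12.7 and 13.6 (log2 difference 0.82, SE 0.26, adjusted p = 0.028). Neither pair of ranges overlapped. Mki67 (log2 difference 1.00, adjusted p = 0.39) and Top2a (0.86, adjusted p = 0.46) did overlap, through the first chow library, which held Rag1 at 30.4 and Cd79a, a B cell receptor subunit, at 16.5. Without that library 10 of the 42 passed, 2 passed without EKO on chow, replicate 3, or EKO on Western diet, replicate 1, and 3 without EKO on Western diet, replicate 3. With a term for libraries that lack Y-linked transcripts 8 passed, with 4 terms for fat, muscle and nerve transcripts 2, and with these 6 libraries alone in the fit 3.

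The loss of Apoe was compared with WT on Western diet at 22 weeks. Of the 42 genes 33 were higher in EKO (median log2 difference 0.33, against -0.01 over all genes), and 3 rose: Pcna, Prc1 and Kif20a. The share of all genes that rose was 14.8% and that fell 7.2%, so 22% passed in either direction. Ranges lay above those of WT for 3 genes, against 23.7% of all genes. Pcna was 82.1, 56.7 and 47.9 in WT, with its first value inside the EKO range of 80.1 to 88.8 (log2 difference 0.49, SE 0.14, adjusted p = 0.011). Prc1 was 12.1, 5.69 and 4.97 in WT, all below the EKO values of 13.9 to 15.2 (log2 difference 0.95, SE 0.27, adjusted p = 0.013). Kif20a, a kinesin of the midzone, was 7.51, 3.70 and 1.95 in WT and 8.44, 8.51 and 8.68 in EKO, again without overlap (log2 difference 0.96, SE 0.33, adjusted p = 0.036). Of the 6 fits that left out 1 library, Kif20a passed in 1, and Prc1 and Pcna in 4 each.

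The mean level of the 42 genes had its largest SD of the 12 groups in WT on Western diet for 22 weeks (0.94). Top2a was 63.1, 19.1 and 3.48 in its 3 libraries and 20.8 to 28.1 in EKO (log2 difference 0.47, SE 0.75, adjusted p = 0.72). Racgap1 was 14.6, 6.50 and 2.17 in WT, against 12.9 to 14.4 in EKO (adjusted p = 0.11). Mki67 had a log2 difference of 0.30 (SE 0.76, adjusted p = 0.83). The order of the WT values followed that of Rag1, which was 178, 64.5 and 0.76. Rag1 in the 3 EKO libraries was 3.14, 0.128 and 0.267. Without WT replicate 1, 8 of the 42 genes passed, and without WT replicate 2 or replicate 3 none did by limma, with 3 and 4 genes at an unadjusted p under 0.05. The log2 difference turned to -0.75 for Mki67 and -0.53 for Top2a without replicate 3, the library with the conflicting genotype tag, neither past the threshold. With the 6 libraries of this comparison alone in the fit, 1 passed.

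EKO/hA-I mice were compared with EKO mice on Western diet for 22 weeks, which asks what overexpressed human apoA-I changes at the later time. Of the 42 genes 41 were lower in EKO/hA-I (median log2 difference -0.67, against -0.02 over all genes), and 4 fell: Prc1, Pcna, Tpx2 and Melk. None rose. The share of all genes that fell was 12.9%, and 18.8% passed in either direction. Ranges lay below those of EKO for 19 of 42, against 22.8% of all genes. Prc1 was 4.68, 6.35 and 4.65 in EKO/hA-I, all below the 13.9 to 15.2 of EKO (log2 difference -1.33, SE 0.27, adjusted p = 0.001). Pcna was 51.7, 63.3 and 47.5, without overlap (log2 difference -0.66, SE 0.14, adjusted p = 0.0012). Tpx2 was 5.42, 8.71 and 5.01 (log2 difference -1.10, SE 0.30, adjusted p = 0.01), and Melk was 0.714, 1.56 and 0.816 (log2 difference -0.88, SE 0.30, adjusted p = 0.042).

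By role, the median log2 difference was -1.15 for the 4 cyclin and kinase genes, -0.81 for the 7 spindle and kinetochore genes, -0.76 for the 7 mitotic kinases and checkpoint genes, -0.49 for the 8 replication genes and -0.32 for the 4 nucleotide supply genes. Cdk1 was 1.89, 4.24 and 1.68 in EKO/hA-I, below the 6.25 to 6.72 of EKO (adjusted p = 0.11). Mki67 had a log2 difference of -0.98 (adjusted p = 0.39) and Top2a, at 7.14, 28.7 and 6.58, one of -1.02 (adjusted p = 0.36). In both, EKO/hA-I replicate 2, the library of high Cr2, lay above all 3 EKO values. Without that library 8 of the 42 passed, and 2 passed without EKO/hA-I replicate 1. With the 6 libraries alone in the fit, or a pseudocount of 5, 7 passed. Prc1 and Pcna passed in each of the 6 fits that left out 1 library, Tpx2 in 5 and Melk in 1. Levels in EKO/hA-I and WT were set side by side too: on Western diet at 22 weeks 40 of 42 had a lower mean with the transgene than in WT (median log2 difference -0.38), but 1 passed, where 18% of all genes did and 9.46% fell. That median was -0.18 without the 4 libraries of highest lymphocyte markers and turned to 0.03 with terms for T cell and B cell transcripts, where 1.15% of all genes passed. That gene was Anln, at 23.6, 10.2 and 34.3 against 42.7, 54.1 and 52.4 (log2 difference -1.24, SE 0.39, adjusted p = 0.03). It passed in 3 of the 6 fits that left out 1 library. The count was 0 without WT replicate 2 or EKO/hA-I replicate 2 (4 and 6 genes at an unadjusted p under 0.05) and 3 without WT replicate 3.

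The immature T cell and B cell transcripts moved with these genes among libraries. The summed level of 8 immature T cell genes, a list chosen after values were seen, was 7.81 to 808 in WT on Western diet for 22 weeks, 25.1 to 172 in EKO on chow for 22 weeks, 16.7 to 205 in EKO on Western diet for 6 weeks, 7.09 to 118 in EKO/hA-I on Western diet for 22 weeks and 12.3 to 19.3 in EKO on Western diet for 22 weeks. No gene of the list was at 0 in every library. The summed level of 5 B cell genes was 8.90 to 310 in EKO/hA-I on Western diet for 22 weeks and 6.97 to 37.4 in EKO. Over the 35 libraries the log2 level of Mki67 was related to the mean log2 level of the T cell list with Pearson's r = 0.68 (permutation p = 3e-05, adjusted over 6 relations 6e-05) and Spearman's rank correlation = 0.67 (adjusted p = 0.00018). The r was 0.56 without the 2 libraries farthest from the median and 0.88 for deviations from the group means. Top2a gave r = 0.68 (permutation p = 1e-05, adjusted p = 6e-05), a rank correlation of 0.65, 0.57 without those 2 libraries and 0.89 for the deviations. Pcna gave r = 0.29 (permutation p = 0.092), a rank correlation of 0.50, 0.14 without 2 libraries and 0.74 for the deviations. The T cell list was chosen after values of these same libraries were seen, and the permutations ignored the 12 groups. These p-values are therefore a description and cannot test the relation. The other relations of the 6 were those of the same genes with the macrophage list described below.

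The 3 libraries of EKO on Western diet for 22 weeks stood off this relation: their Mki67 of 28.4 to 35.3 stood beside a summed T cell list of 12.3 to 19.3. Without them the r of Mki67 with the T cell list was 0.84 over 32 libraries. Macrophage transcripts separated these 3 libraries from all others. The summed level of 12 macrophage genes was 6619 to 9455 there, 948 to 1526 in EKO on Western diet for 6 weeks, 1285 to 2178 in EKO on chow for 22 weeks, 385 to 766 in WT and 1063 to 2378 in EKO/hA-I on Western diet for 22 weeks. Cd68, the macrophage sialomucin, was 413, 345 and 586 in those libraries and at most 85.1 in the other 32. All 12 macrophage genes rose from 6 to 22 weeks in EKO on Western diet (median log2 difference 2.39), and 11 of 12 fell in EKO/hA-I against EKO (median -1.93). No relation across all 35 libraries is given for this list, since 3 libraries form a cluster of their own, and over the other 32 its r was 0.28 with Mki67, 0.33 with Top2a and 0.31 with Pcna. Smooth muscle transcripts went the other way, with 8 genes summing to 5757 to 9699 in EKO on Western diet for 22 weeks and 12047 to 26102 at 6 weeks, but also to 3912 to 9449 in EKO/hA-I. EKO/hA-I and EKO on Western diet for 22 weeks differed in other lists too, without overlap of the sums. Erythroid transcripts (7 genes) were 1478 to 7444 against 10071 to 15491 in EKO, fibroblast transcripts (8 genes) 2998 to 5178 against 8986 to 12260, skeletal muscle transcripts (9 genes) 1068 to 3721 against 24.8 to 144, brown fat transcripts (7 genes) 5625 to 7215 against 1278 to 4927, and white fat transcripts (5 genes) 1921 to 2425 against 1347 to 1563. The part of these cells and tissues in the levels of the 42 genes was not tested.

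**Figure D3:**
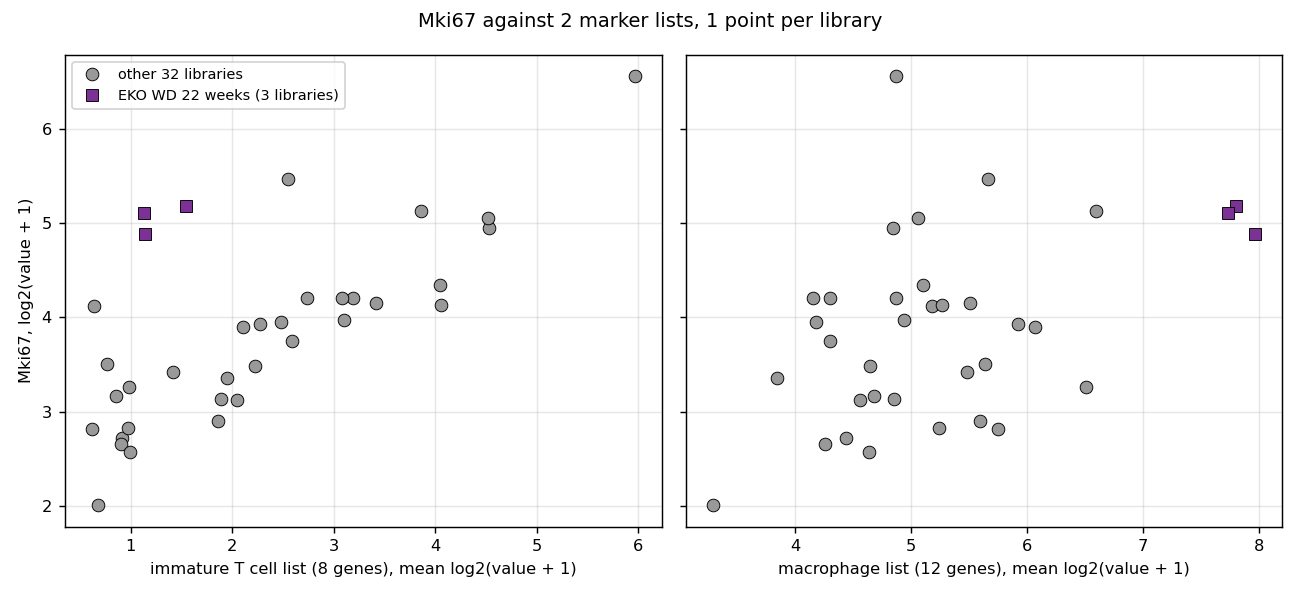
Mki67 as log2(value + 1) in 35 libraries against the mean log2(value + 1) of 8 immature T cell genes (left) and 12 macrophage genes (right); squares are EKO on Western diet for 22 weeks and circles the other 32 libraries. On the left the circles run along a rising band (r = 0.84, n = 32) and the squares lie above it at low T cell levels, and on the right the squares lie alone at the highest macrophage levels.

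These comparisons were refitted with the mean log2 levels of the T cell and B cell lists as covariates, an alternative chosen after the values were seen. The T cell list moved with Mki67 and Top2a in these same libraries and was low in EKO on Western diet for 22 weeks. Such terms narrow the spread and raise the differences of that group by themselves. The counts and p-values of this refit are therefore a description and no independent support. From 6 to 22 weeks of Western diet in EKO, 27 of the 42 genes then rose (median log2 difference 0.96), against 10.4% of all genes. Against chow in EKO at 22 weeks 35 rose (median 1.10; 15.3% of all genes). Against WT on Western diet at 22 weeks 26 rose (median 0.98; 14.2%). In EKO/hA-I against EKO 26 fell (median -0.90; 10.7%). The genes called in the fit of 12 groups were all called again: 4, 5, 3 and 4 in these comparisons. In this fit Mki67 rose by 1.64 on the log2 scale with duration (SE 0.37, adjusted p = 0.0028), by 2.16 with diet (SE 0.35, adjusted p = 7.1e-05) and by 1.68 against WT (SE 0.37, adjusted p = 0.0016), and fell by 1.44 in EKO/hA-I (SE 0.35, adjusted p = 0.0063).

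All 4 cyclin and kinase genes rose with duration and with diet and against WT, and all 4 fell in EKO/hA-I. Bub1 rose by 1.51 with duration (adjusted p = 5.4e-05) and by 1.42 against WT (adjusted p = 6.2e-05), and fell by 1.40 in EKO/hA-I (adjusted p = 9e-05). Cenpe, the kinesin that carries chromosomes to the spindle equator, rose by 1.32 with duration (adjusted p = 0.00027). Among the replication genes Mcm4, Mcm6 and Mcm7 passed neither with duration nor against WT nor in EKO/hA-I. Mcm7 had log2 differences of 0.08, 0.03 and -0.07 in those 3 comparisons. Tyms, at 0.23, 0.09 and -0.05, and Rrm1, at 0.18, 0.09 and -0.31, passed in none of them either. Anln passed in none, with log2 differences of 0.02, -0.77 and 0.05.

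**Figure D4:**
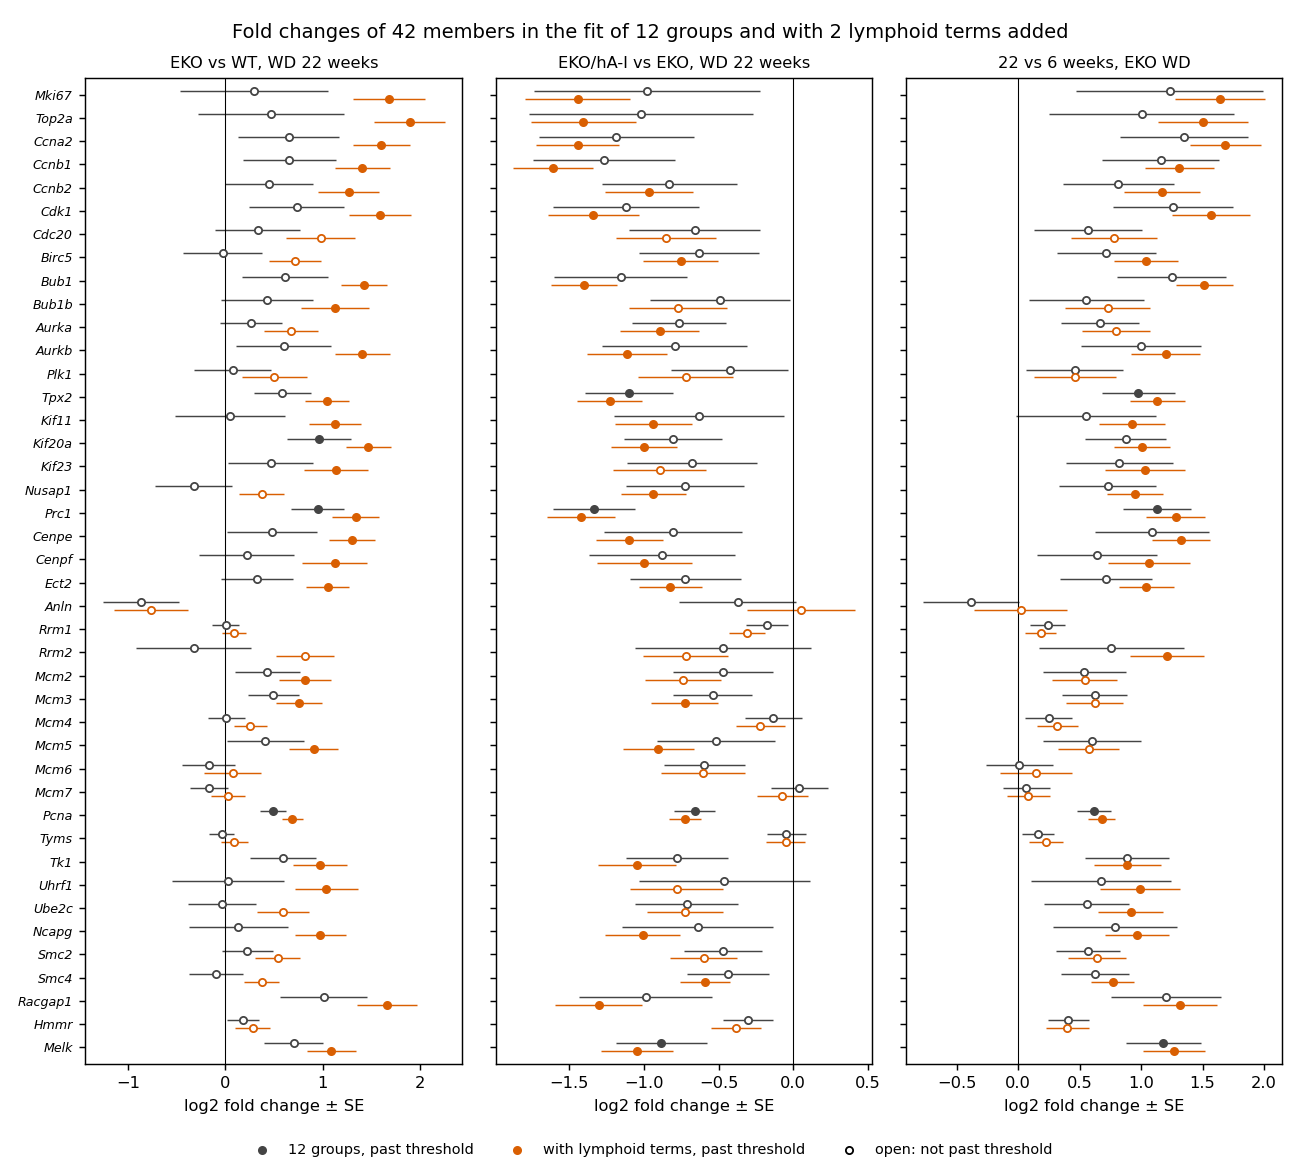
Log2 fold changes with standard errors of the 42 genes in 3 comparisons, from the fit of 12 groups (grey) and with the immature T cell and B cell terms added (orange); filled points passed an adjusted p under 0.05 and open points did not. The filled points number 3, 4 and 4 in grey and 26, 26 and 27 in orange from left to right, and Anln, Tyms and Mcm7 are unfilled in all panels.

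With the 4 libraries of highest lymphocyte markers left out instead, 20 of the 42 rose against WT (median 0.86; 14.4% of all genes), 21 fell in EKO/hA-I (median -1.02; 10.3%), 17 rose with Western diet in EKO at 22 weeks (median 0.88; 12.5%) and 14 rose with duration (median 0.69; 11.2%). Mki67 passed in none of these 4, with adjusted p-values of 0.23, 0.099, 0.12 and 0.19. Both alternatives gave the same direction as the fit of 12 groups for Prc1, Pcna, Tpx2, Melk, Mki67 and Top2a in all 4 comparisons. The libraries left out were also high in the 42 genes. By mean log2 level, WT on Western diet for 22 weeks, replicate 1, ranked 1 of all libraries. EKO on chow for 22 weeks, replicate 1, ranked 4, and EKO/hA-I on Western diet for 22 weeks, replicate 2, ranked 6. Each was the highest of its group, so leaving it out widens the difference from EKO on Western diet by itself. The counts without the 4 libraries are therefore a description and no independent support.

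The differences between these effects were tested as interactions. In the fit of 12 groups none of the 42 genes had an EKO effect that differed between diets at 22 weeks (limma, 2 at an unadjusted p under 0.05; 6.21% of all genes passed), none an EKO effect on Western diet that differed between durations (0 at an unadjusted p under 0.05; 8.64% of all genes passed) and none an effect of human apoA-I that differed between durations (3 at an unadjusted p under 0.05; 5.12% of all genes passed). Pcna had an interaction of -0.50 (SE 0.20, adjusted p = 0.15) in the last of these. With the T cell and B cell terms, 13 of 42 were higher in the first interaction (4.73% of all genes), 6 in the second (4.4%) and 7 lower in the third (4.8%). Without the 4 libraries these counts were 2, 1 and 2. Leaving out WT on Western diet for 22 weeks, replicate 1 or replicate 3, gave 1 call in the first, and leaving out EKO/hA-I on Western diet for 6 weeks, replicate 1, gave 1 in the third.

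Western diet in WT mice gave no call at 22 weeks in the fit of 12 groups, although 40 of the 42 genes were higher (limma, median log2 difference 0.66, 14 at an unadjusted p under 0.05, against 16.2% of all genes), where 1.36% of all genes passed and 0.925% rose. The median was 0.18 with the T cell and B cell terms and 0.22 without the 4 libraries of highest lymphocyte markers. Mki67 had a log2 difference of 1.44 (adjusted p = 0.35). Without WT on Western diet for 22 weeks, replicate 3, 8 passed. From 6 to 22 weeks of Western diet in WT, 41 of 42 were higher (median 0.72). By limma 21 of the 42 had an unadjusted p under 0.05, against 3668 of all 14157 genes. Of the 42, 1 rose, where 6.68% of all genes passed and 3.21% rose. That gene was Nusap1, a microtubule-binding protein of the spindle, at 1.97, 2.14 and 1.96 against 13.8, 6.04 and 3.91 (log2 difference 1.40, SE 0.39, adjusted p = 0.034). Ranges lay apart for 4 genes, against 16.1% of all genes. Without WT on Western diet for 22 weeks, replicate 3, the library with the conflicting tag, 19 passed, and without each of the other 5 libraries in turn none did (limma, 2 to 18 genes at an unadjusted p under 0.05). With the T cell and B cell terms none passed (2 at an unadjusted p under 0.05), the median was 0.25, and Mki67 was at -0.02 (adjusted p = 0.98).

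On chow at 22 weeks 35 of the 42 genes were higher in EKO than in WT (median log2 difference 0.37) and 1 rose, where 15.3% of all genes passed and 7.35% rose. An unadjusted p under 0.05 was found for 5 of the 42, against 29.6% of all genes. The median was 0.13 without the 4 libraries of highest lymphocyte markers and turned to -0.05 with the T cell and B cell terms, where Mcm2 did not pass and Smc4 fell. The gene that rose in the fit of 12 groups was Mcm2, a subunit of the MCM helicase, at 7.13, 5.53 and 6.74 in WT and 24.9, 12.1 and 9.98 in EKO (log2 difference 1.06, SE 0.34, adjusted p = 0.033). The count was 0 without EKO replicate 1, at 24.9, and without WT replicate 1 or replicate 3 (limma, 1, 6 and 2 genes at an unadjusted p under 0.05), and 2 without EKO replicate 3. In EKO/hA-I against EKO on chow at 22 weeks, where 28.6% of all genes passed, 1 gene fell and 1 rose. Ube2c, which encodes the ubiquitin-conjugating enzyme of the anaphase-promoting complex, fell from 10.6, 8.87 and 4.71 to 2.43, 3.21 and 2.66 (log2 difference -1.21, SE 0.35, adjusted p = 0.012). Anln rose from 23.4, 26.6 and 28.8 to 47.8, 52.8 and 65.6 (log2 difference 1.04, SE 0.39, adjusted p = 0.048), a call that was lost in all 6 fits that left out 1 library. Without EKO replicate 1 neither gene passed (5 at an unadjusted p under 0.05), and 1 passed without EKO replicate 2 or without any single EKO/hA-I library. Ube2c also rose in EKO on chow from 6 weeks, at 2.42, 3.69 and 4.62, to 22 weeks (log2 difference 0.95, adjusted p = 0.043), as did Mcm7, from 15.8, 22.2 and 16.7 to 33.1, 23.1 and 23.9 (log2 difference 0.52, adjusted p = 0.045), while Anln fell from 33.7, 75.5 and 86.1 (log2 difference -1.17, adjusted p = 0.029). In that comparison 27% of all genes passed, and the median over the 42 was 0.27, against -0.16 with the T cell and B cell terms and -0.02 without the 4 libraries. Leaving out any 1 of its 6 libraries gave 0 or 1 calls, with 0 without EKO at 6 weeks, replicate 3, or EKO at 22 weeks, replicate 1 (limma, 3 genes each at an unadjusted p under 0.05).

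In EKO/hA-I mice 2 of the 42 genes fell on Western diet against chow at 22 weeks, where 38.2% of all genes passed and 17.5% fell. Anln fell from 47.8, 52.8 and 65.6 to 23.6, 10.2 and 34.3 (log2 difference -1.39, SE 0.39, adjusted p = 0.0079). Mcm6, another helicase subunit, fell from 45, 55.6 and 49.0 to 24.3, 33.8 and 28.1 (log2 difference -0.78, SE 0.27, adjusted p = 0.026). Neither pair of ranges overlapped. Skeletal muscle transcripts were higher in this group, with the summed level of 9 genes at 1068 to 3721 on Western diet and 11.6 to 45.9 on chow. With 4 terms for fat, muscle and nerve transcripts Anln had a log2 difference of 0.28 (adjusted p = 0.94), so its direction turned. Leaving out chow replicate 2 or 3 or any Western diet replicate gave 1 call.

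The remaining comparisons gave no call among the 42 genes by limma. At 6 weeks, EKO against WT gave 1 gene at an unadjusted p under 0.05 on each diet, where 5.44% of all genes passed on Western diet (3.94% higher, 1.5% lower) and 4.97% on chow (2.27% higher, 2.71% lower). On chow 1 gene passed when EKO replicate 1 was left out. On Western diet 15 of the 42 genes had ranges above those of WT, against 14.1% of all genes. EKO/hA-I against EKO at 6 weeks gave 0 genes at an unadjusted p under 0.05 on Western diet and 1 on chow, where 0.0706% and 0.0777% of all genes passed (0.0353% higher on chow). At an unadjusted p under 0.05 on Western diet there were 5.28% of all genes. Western diet against chow at 6 weeks gave 1, 0 and 0 such genes in WT, EKO and EKO/hA-I, where 1.43%, 0.0848% and 0.00706% of all genes passed. From 6 to 22 weeks there were 2 such genes in WT on chow, 0 in EKO/hA-I on chow and 1 in EKO/hA-I on Western diet, where 0.12%, 0.00706% and 0.0706% passed. Averaged over the 6 genotype and diet groups, 41 of 42 genes were higher at 22 weeks. By limma 20 of the 42 had an unadjusted p under 0.05, against 1822 of all 14157 genes. The count past the adjusted threshold was 0, where 2.09% of all genes passed. That count was 4 without WT on Western diet for 22 weeks, replicate 3, and 1 without EKO on chow for 22 weeks, replicate 3. In all, 13 of the 42 genes passed in at least 1 of 25 comparisons, with 26 calls in 10 comparisons. In 1 comparison alone, Western diet against chow in EKO/hA-I at 22 weeks, 38.2% of all genes passed. The count of 13 is therefore not a sign of a response particular to this set.

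Genes upstream and around this set were followed from 4 further lists: 47 other mitotic genes, 35 other DNA replication genes, 19 regulators of the step from the first gap phase into DNA synthesis, and 9 inhibitors of that step. From 6 to 22 weeks of Western diet in EKO, 8 mitotic genes rose and 0 fell, 2 replication genes rose and 0 fell, 3 regulators rose and 1 fell, and 0 inhibitors rose and 1 fell, where 10.5% of all genes rose and 2.97% fell. Against WT at 22 weeks the counts that rose and fell were 3 and 2, 1 and 3, 5 and 1, and 1 and 1 in the same order, where 14.8% of all genes rose and 7.2% fell. In EKO/hA-I against EKO they were 1 and 8, 1 and 1, 0 and 4, and 1 and 1, where 5.96% of all genes rose and 12.9% fell.

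Among regulators of entry into DNA synthesis, Cdk6, the kinase that partners D-type cyclins, was 31.2, 31 and 35.6 in EKO at 6 weeks of Western diet and 74.9, 56.6 and 55.2 at 22 weeks (log2 difference 0.90, SE 0.15, adjusted p = 9.1e-05). It was 43.4, 34.4 and 34.9 in WT at 22 weeks (log2 difference of EKO over WT 0.71, adjusted p = 0.00087) and 36.0, 28.8 and 36.2 in EKO/hA-I (log2 difference -0.86 against EKO, adjusted p = 0.00015). All 3 EKO values at 22 weeks lay above those of the other 3 groups. E2f1, a transcription factor that switches on replication genes, was 21.1, 21.9 and 22.8 in EKO at 22 weeks, 12.4, 11.1 and 13.2 at 6 weeks, 13.4, 8.31 and 7.65 in WT and 9.57, 9.45 and 11.8 in EKO/hA-I. It rose by 0.80 with duration (adjusted p = 0.012) and by 1.13 against WT (adjusted p = 0.00028), and fell by 1.03 in EKO/hA-I (adjusted p = 0.0012). E2f3, of the same family, rose by 0.50 with duration (adjusted p = 0.041) and by 0.67 against WT (adjusted p = 0.0031), and fell by 0.64 in EKO/hA-I (adjusted p = 0.0065).

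Among the other mitotic genes Ncapg2, a condensin II subunit, was 9.25, 8.01 and 7 in EKO at 6 weeks and 21.0, 15.9 and 17 at 22 weeks (log2 difference 1.06, adjusted p = 0.0005). Arhgap11a was 9.33, 8.40 and 9.33 against 27.2, 23.7 and 23.5 (log2 difference 1.36, adjusted p = 0.012). Pttg1, which encodes securin, the guard of sister chromosome cohesion, went the other way from these: it was 23.8, 30.8 and 30.3 in EKO at 22 weeks and 40.3, 42 and 45.1 in WT (log2 difference -0.58, adjusted p = 0.00085), and 42.9, 34.9 and 45.1 in EKO/hA-I (log2 difference 0.52 against EKO).

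Of the inhibitors, Cdkn1a encodes p21, which halts the cycle after DNA damage. It was 103, 90.7 and 91.5 in EKO on Western diet for 22 weeks and 34.6, 28.7 and 43.6 in WT, with no overlap (log2 difference 1.41, SE 0.33, adjusted p = 0.0023). In WT on Western diet for 6 weeks it was 127, 121 and 98.0, so that it fell with duration in WT (log2 difference -1.68, adjusted p = 0.0051). In EKO/hA-I on Western diet for 22 weeks it was 120, 83.3 and 180. Gas1, a growth arrest gene of the plasma membrane, was 142, 128 and 145 in EKO at 6 weeks of Western diet and 86.3, 91.2 and 82.2 at 22 weeks (log2 difference -0.67, adjusted p = 0.037).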

How the data were processed

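RNA from 35 mouse aortas was sequenced. The authors deposited 1 table of normalised read counts per gene (a signal, not whole counts); Bowtie 0.12.2, Bowtie2, RSEM and the builds mm8 and mm9 are named, without a role, per the submitters' processing notes, and the normalisation and strand are not given in the sources used here. Columns were matched to samples by their names. Totals of the deposited signal were 907492 to 1.13774e+06 per library. Low values were whole multiples of a common step, within 0.02 of a read, for 71.6% to 81.5% of genes, so whole reads were not recovered and no count model was used; depth was inferred from the step.

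Values were tested as log2(value + 1) with limma 3.58.1 in R 4.3.3 (intensity trend, robust, 23 residual degrees of freedom), in 1 fit of 12 groups. Genes entered (14157) where 3 or more libraries reached 1, and 17 did not. P-values are two-sided, Benjamini-Hochberg adjusted over those genes, with a threshold of 0.05. The labels do not say that samples of a group came from separate litters or batches, so p-values measure the spread between these samples. The relations across libraries used permutations over all 35 libraries without regard to group (Python 3.11.15, 100000 resamples), and their p-values are descriptive. The fit was tested on simulated data.

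The 42 members and all lists were chosen with earlier results of these data known. Values per library are given for members past the threshold in the comparison described and for Mki67, Top2a and Pcna. Those of Cdk1, Ccnb1, Ccna2, Bub1, Racgap1, Tyms and Hmmr were added after their values were seen. From each of 4 other cell cycle lists up to 4 genes of smallest p past the threshold per comparison could be named, and Apoe checked the genotypes. Alternatives were a pseudocount of 0.1 or 5, no filter, median-ratio scaling, only the groups compared, each library left out, a term for Y-linked transcripts, 4 terms for brown fat, skeletal muscle, cardiac muscle and nerve transcripts, and the replicate number as a block. The T cell and B cell terms, and leaving out the 4 libraries of highest lymphocyte markers, were added after seeing the data. Summed levels in the 35 libraries ran from 1278 to 13891 for 7 brown fat genes, 22.5 to 5737 for 7 cardiac genes, 12.1 to 2134 for 8 nerve genes and 7.35 to 4850 for 9 skeletal muscle genes. No label states what a replicate number marks. Same-numbered samples deviated together in every pair (r of residuals) in EKO on Western diet from 6 to 22 weeks (0.122 to 0.439) in WT on Western diet (0.132 to 0.339), and in the 2 pairs of EKO/hA-I on chow (0.280 to 0.349). Promoter windows are from RefSeq (GRCm38.p6).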

Additional observations from a re-analysis of the deposited data

Results flagged for a closer look

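None of the 42 genes differed between 2 effects by an interaction in the fit of 12 groups (limma), but 4 genes of the regulator and inhibitor lists did, in 6 pairs of a gene and 1 of the 3 interactions. The EKO effect on Cdkn1a at 22 weeks was larger on Western diet than on chow by 1.61 on the log2 scale (SE 0.47, adjusted p = 0.038), and larger at 22 than at 6 weeks of Western diet by 1.96 (adjusted p = 0.0084). The WT values of Cdkn1a were 75.4, 101 and 116 on chow for 22 weeks and 34.6, 28.7 and 43.6 on Western diet for 22 weeks. For Gas1 the same differences were -1.10 (adjusted p = 0.028) and -1.15 (adjusted p = 0.017). Gas1 was 111, 139 and 138 in WT and 86.3, 91.2 and 82.2 in EKO on Western diet for 22 weeks. Ccnd1, which encodes cyclin D1, had an EKO effect on Western diet larger at 22 than at 6 weeks by 1.28 (adjusted p = 0.034), with EKO at 95.6, 86.5 and 86.3 and WT at 32.8, 44.9 and 47.2 at 22 weeks. For Cdk6 the effect of human apoA-I on Western diet was lower at 22 than at 6 weeks by a difference of -0.74 (adjusted p = 0.04).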

How the results depend on the processing

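Counts are of the 42 genes past the adjusted threshold. The share of all genes that passed in each refit is not set beside them in this section. A moved count need not be particular to the 42 genes. Leaving out 1 library at a time gave 0 to 8 in EKO against WT on Western diet at 22 weeks, 0 to 2 on chow at 22 weeks, 0 to 1 on chow at 6 weeks, 2 to 8 in EKO/hA-I against EKO on Western diet at 22 weeks, 0 to 2 on chow at 22 weeks, and 0 to 3 in EKO/hA-I against WT. For Western diet against chow at 22 weeks it gave 0 to 8 in WT, 2 to 10 in EKO and 1 to 2 in EKO/hA-I. For 22 against 6 weeks it gave 0 to 19 in WT on Western diet, 0 to 1 in EKO on chow, 3 to 4 in EKO on Western diet and 0 to 4 averaged over groups. The interactions by diet and of apoA-I by duration gave 0 to 1.

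A pseudocount of 5 gave 7 in EKO/hA-I against EKO on Western diet at 22 weeks, 2 in EKO/hA-I against WT and 8 in EKO on Western diet by duration. Median-ratio scaling gave 2 in EKO/hA-I against WT. A pseudocount of 0.1 and no filter moved no count by over 1.5 times. Only the groups compared gave 1 and 0 in EKO against WT at 22 weeks on Western diet and chow, 7 in EKO/hA-I against EKO on Western diet, 3 for diet in EKO at 22 weeks, and by duration 0 in WT on Western diet, 0 in EKO on chow and 17 in EKO on Western diet. The Y-linked term gave 1 in EKO/hA-I against EKO on chow at 22 weeks, 8 for diet in EKO and 1 for duration in EKO on chow. The 4 tissue terms gave 0 in EKO/hA-I against EKO on chow at 22 weeks, 0 in EKO/hA-I against WT, 2 for diet in EKO, 0 for diet in EKO/hA-I, and by duration 1 in WT on chow, 0 in WT on Western diet and 0 in EKO on chow.

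With the replicate number as a block, 1 passed in EKO/hA-I against EKO on chow at 22 weeks, 2 in EKO/hA-I against WT and 1 in EKO on chow by duration. The block moved no count where every pair deviated together, 4 in EKO and 1 in WT on Western diet and 0 in EKO/hA-I on chow by duration (limma, 0 at an unadjusted p under 0.05 in the last without the block), nor any other count of the 25.

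The T cell and B cell terms gave 26, 26, 35 and 27 in the 4 comparisons that hold EKO on Western diet for 22 weeks (against WT, EKO/hA-I against EKO, diet and duration), 0 in EKO/hA-I against WT, 6 for diet in EKO/hA-I, 0 in WT on Western diet by duration, 1 in EKO on chow by duration, 1 averaged over groups, and 13, 6 and 7 in the interactions. Without the 4 libraries of highest lymphocyte markers these were 20, 21, 17 and 14, then 0, 1, 0, 0 and 0, with 2, 1 and 2 in the interactions, and on chow at 22 weeks 0 for EKO over WT and 1 for EKO/hA-I over EKO.

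Of single genes, 3 reversed and the cause was not tested: Anln for diet in EKO/hA-I with the 4 tissue terms (0.28), and Mki67 (-0.75) and Top2a (-0.53) in EKO against WT on Western diet at 22 weeks without WT replicate 3, where the other libraries left out gave up to 1.20 and 1.38. Of 204 refits of named genes without 1 library, 134 kept their side of the threshold, 68 lost it and 2 reversed. What depth limits was not tested; 30 of the 42 had a median value below 10.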
